A study of Mus musculus with 663 samples.

Results

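Bone morphogenetic protein (BMP) signalling was followed through 10 genes of a table of 43320: the ligands Bmp2, Bmp4 and Bmp7, the receptors Bmpr1a, Bmpr1b and Bmpr2, the target genes Id1, Id2 and Id3, and the secreted antagonist Grem1. They were chosen by name for their place in the pathway, and all 10 were in the table with a mean of at least 1 RPKM (reads scaled to gene length and to the total reads of the cell) in at least 1 group of cells, Grem1 only at E10.5. The cells were somatic cells of the developing mouse gonad, sorted live for an Nr5a1-eGFP reporter from gonads labelled XX. All groups were labelled with this genotype on a mixed strain background, though 1 capture of E12.5 held a Y-linked transcript, as given below. Stage was labelled as embryonic day (E10.5, E11.5, E12.5, E13.5 or E16.5) or postnatal day (P6). Stages also differed in sequencing series, since E16.5, P6 and the third E12.5 capture were sequenced apart from the rest. There was no group with an altered BMP gene or treatment, and cells without the reporter were not sampled. In all, 662 cells came from 12 captures, each a run of a microfluidic chip, with 1 capture of 71 cells for E10.5, 3 captures of 53, 53 and 57 cells for E12.5 and 2 captures for each of the others (106 cells for E11.5, 106 for E13.5, 95 for E16.5 and 121 for P6).

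BMP ligands are secreted as dimers and bind complexes of type I receptors, such as BMPR1A and BMPR1B, and type II receptors, such as BMPR2. The receptor complex phosphorylates SMAD1, SMAD5 and SMAD9, which enter the nucleus with SMAD4 and switch on the Id genes, whose products bind basic helix-loop-helix factors and keep them from DNA. Gremlin 1 binds BMP2, BMP4 and BMP7 outside the cell, and in the ovary BMP signals are known to act on supporting cells and on follicles.

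Upstream sequences of Id2 and Bmp4 are shown because Id2 is the target gene that differed between cell classes below and Bmp4 is the ligand with the widest range of levels over stages. Both come from RefSeq windows on GRCm38.p6, which held 7 of the 10 genes, and only bases outside annotated exons of GENCODE vM21 are printed, 5′ to 3′ on the gene's strand. Capitals mark GGCGCC, a GC-rich SMAD motif that is its own reverse complement, and the SMAD box GTCT or its reverse complement AGAC.
Id2, chr12:25096254-25096342, minus strand, starting 250 bases upstream of the RefSeq start and within an intron of a longer GENCODE transcript of the gene: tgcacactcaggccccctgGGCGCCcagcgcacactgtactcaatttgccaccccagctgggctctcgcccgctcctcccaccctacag
Bmp4, chr14:46390670-46390919, minus strand, the 250 bases before the start: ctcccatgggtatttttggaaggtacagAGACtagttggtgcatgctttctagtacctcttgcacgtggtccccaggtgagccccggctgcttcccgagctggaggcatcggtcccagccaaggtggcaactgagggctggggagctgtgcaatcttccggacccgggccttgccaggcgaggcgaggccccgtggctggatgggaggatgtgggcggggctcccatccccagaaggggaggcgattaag
The 89 bases of Id2 held GGCGCC 1 time, as did 2.73% of 32851 promoter windows over the same positions, and no SMAD box, which 49.5% held. The 250 bases of Bmp4 held 1 SMAD box, as 82.9% of windows did, and no GGCGCC, which 9.59% held. The E-box CANNTG, not in capitals and on either strand, matched 1 time in Id2 and 3 times in Bmp4, against at least 1 match in 33% and 66.2% of windows of these lengths. These matches describe letters, not binding.

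Depth and sex-linked transcripts set 1 capture apart. The steps of the values put the median depth of the second E12.5 capture at 0.148M reads per cell, against 1.89M to 3.20M in the other 11 captures. There 1 read of Bmp2 was worth 1.91 RPKM, against at most 0.15 RPKM elsewhere, so a single read made a cell count as positive. This capture, labelled XX, also held the Y-linked transcript Ddx3y at a mean of 20.6 RPKM, in 29 of 53 cells, against at most 1 cell in any other capture. The X-linked transcript Xist was at or above 1 RPKM in 15.1% of its cells, against 78.9% to 100% in the other captures. The part of this in its values was not tested. The capture held no cell with supporting-cell markers as defined below. Nr5a1 itself was at or above 1 RPKM in 56.3% to 88.7% of the cells of each capture. The median number of genes detected per cell was 7976 at E10.5 and 3640 in the second P6 capture, so shares of positive cells are read beside it.

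By mean over the 12 captures, on the RPKM scale that allows for gene length, the Id genes stood highest. Id2 was at 477 ± 202 RPKM (SD, n = 12 captures), Id3 at 400.0 ± 175 and Id1 at 123.2 ± 75.8. The receptor Bmpr1a followed at 20.4 ± 8.38, then Bmp4 at 12.7 ± 10.8, Bmp2 at 9.70 ± 10.1, Bmpr2 at 7.83 ± 2.61, Bmp7 at 5.04 ± 3.73, Bmpr1b at 2.64 ± 2.65 and Grem1 at 0.274 ± 0.863. Each gene overlapped over captures with its neighbour in this order. The 12 captures differ in stage, so this spread includes stage differences.

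**Figure D1:**
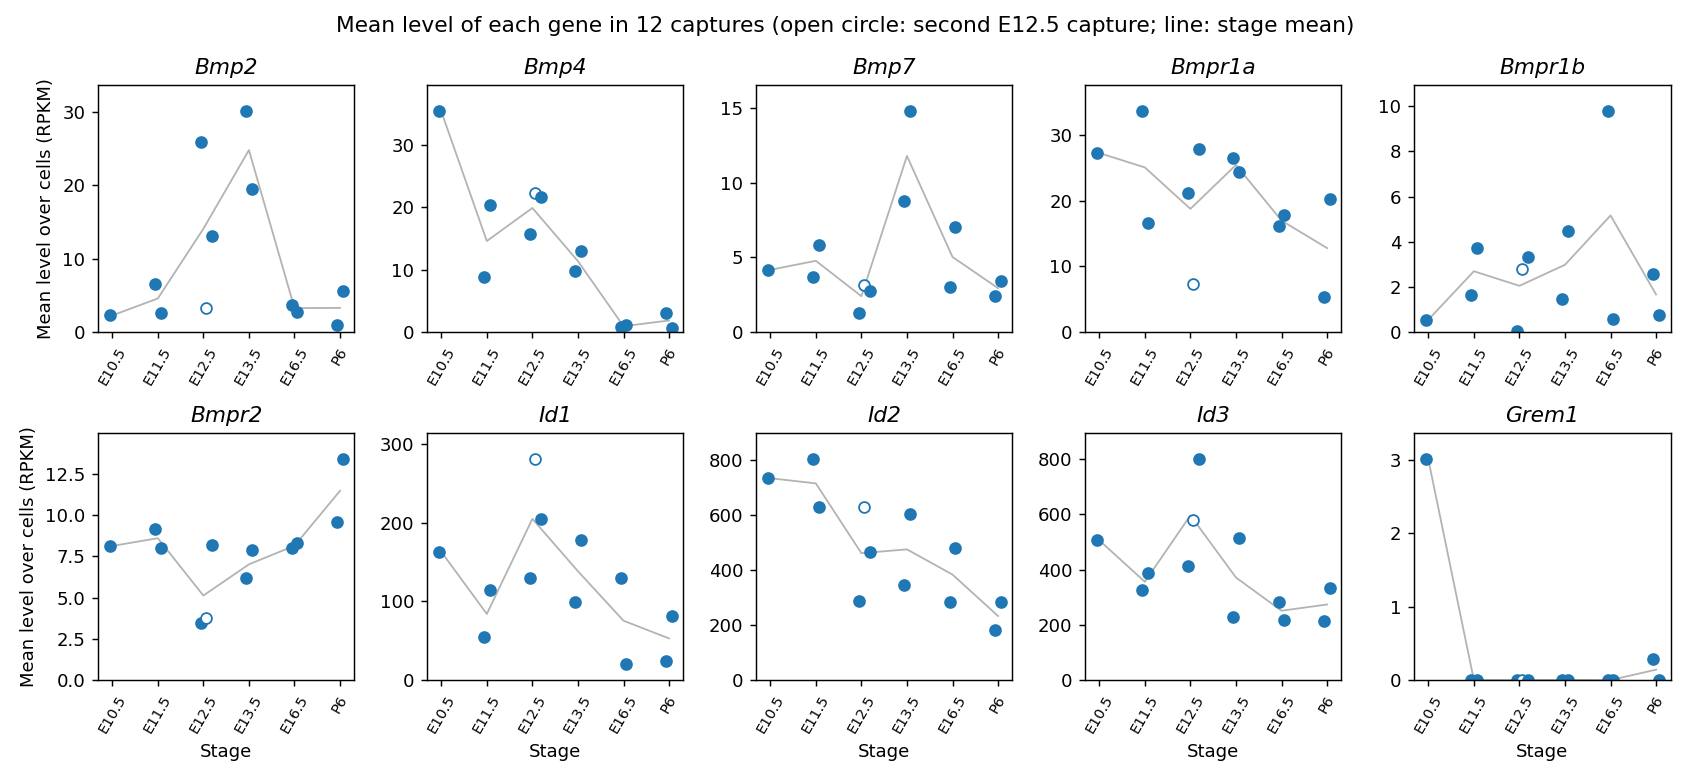
Mean level over the cells of each capture (RPKM, linear axes from 0) for the 10 genes at 6 stages. Each point is a capture, the line joins stage means, and the open circle is the shallow second E12.5 capture; Bmp2 and Bmp7 were highest at E13.5, Bmp4 was at most 3.05 RPKM at E16.5 and P6, and Grem1 was at 3.001 RPKM at E10.5 and at most 0.283 RPKM after it.

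Bmp2, a ligand of the BMP2 and BMP4 subfamily, was at 2.26 RPKM at E10.5, and at 6.58 and 2.57 RPKM in the captures of E11.5. Its E12.5 captures held 25.95, 3.25 and 13.1 RPKM, and its E13.5 captures held 30.1 and 19.5 RPKM. At E16.5 the values were 3.75 and 2.76 RPKM, and at P6 0.944 and 5.65 RPKM. Both E13.5 captures lay above all captures of E10.5, E11.5, E16.5 and P6, while E12.5 spanned most of the range, its shallow capture being the low one. Between E11.5 and E13.5, sequenced in the same series, the log2 difference was 2.28 ± 0.98 (SE), the largest among the 10 genes, with an adjusted p of 0.948 (limma). Between E13.5 and E16.5 Bmp2 again had the largest difference, -2.98 on the log2 scale, with an adjusted p of 0.79 (limma), and without the second E12.5 capture this was -1.64. Part of the E12.5 level came from few cells: 1 cell made up 43.1% of the sum in the first capture and 82.3% in the second.

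Bmp4, its close relative and a ligand known from the early urogenital ridge, was at 35.3 RPKM at E10.5 and at 8.80 and 20.3 RPKM at E11.5. It held 15.7, 22.2 and 21.6 RPKM at E12.5 and 9.78 and 12.9 RPKM at E13.5. It was at 0.765 and 1.10 RPKM at E16.5 and at 3.05 and 0.636 RPKM at P6. All 4 captures of E16.5 and P6 lay below all 8 earlier captures, with no overlap. From E13.5 to E16.5 the log2 difference was -2.87 ± 0.92 (SE; unadjusted p = 0.0167, adjusted p = 0.462, limma), and in the overall test of stage the unadjusted p was 0.0142 and the adjusted p 0.237. E13.5 and E16.5 were sequenced in different series. Without the series term the overall test passed for Bmp4 (adjusted p = 0.0378, limma), and without that term and the second E12.5 capture it also passed (adjusted p = 0.048).

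Bmp7, a ligand of a separate subfamily, was at 4.17 RPKM at E10.5 and at 3.71 and 5.85 RPKM at E11.5. The captures of E12.5 held 1.27, 3.16 and 2.77 RPKM, and those of E13.5 held 8.82 and 14.8 RPKM. Later values were 2.998 and 7.06 RPKM at E16.5 and 2.43 and 3.45 RPKM at P6. The E13.5 captures were the highest of all 12 and did not overlap with any other stage. From E12.5 to E13.5 the log2 difference was 2.02 ± 0.58 (SE; unadjusted p = 0.00993, adjusted p = 0.488, limma), and without the second E12.5 capture it was 2.46 (adjusted p = 0.339).

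Of the receptors, the type I receptor gene Bmpr1a was at 27.3 RPKM at E10.5, 33.7 and 16.6 RPKM at E11.5, and 21.2, 7.34 and 27.9 RPKM at E12.5. The captures of E13.5 held 26.6 and 24.4 RPKM, those of E16.5 held 16.2 and 17.8 RPKM, and those of P6 held 5.30 and 20.3 RPKM. The lowest captures were the first of P6 and the shallow one of E12.5. Both E16.5 captures lay below both E13.5 captures, and the E10.5 capture lay above those of E13.5, E16.5 and P6. Bmpr1b, the other type I receptor gene, ranged from 0.023 RPKM in the first E12.5 capture to 9.78 RPKM in the first E16.5 capture, where 1 cell made up 98.1% of the sum. It was found in 49 of 662 cells (7.40%), and from E16.5 to P6 its log2 difference of -0.71, the largest of the 10 genes there, had an adjusted p of 0.951 (limma) and turned to 0.68 without the first E16.5 capture.

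Bmpr2, the type II receptor gene, was at 8.13 RPKM at E10.5, 9.19 and 8.02 RPKM at E11.5, and 3.44, 3.74 and 8.18 RPKM at E12.5. The captures of E13.5 held 6.17 and 7.87 RPKM, those of E16.5 held 7.998 and 8.29 RPKM, and those of P6 held 9.57 and 13.4 RPKM. The first and second E12.5 captures were the lowest of all 12, and the third, from the other sequencing series, lay among the other stages. From E11.5 to E12.5 the log2 difference was -1.06 ± 0.36 (SE; unadjusted p = 0.0209, adjusted p = 0.553, limma), and -1.11 without the second E12.5 capture. In this fit the third E12.5 capture sets the series term, so the fitted E12.5 level rests on the first and second captures.

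Grem1, whose product traps BMP ligands, was seen almost only at E10.5. At E10.5 its mean was 3.001 RPKM, with 7 of 71 cells at or above 1 RPKM (9.86%, exact Clopper-Pearson 95% interval 4.06 to 19.3). From E11.5 to E16.5 no cell reached 1 RPKM, and the mean was 0.006 RPKM in the second E13.5 capture and 0 in the other 8 captures. In the smallest of these captures, with 40 cells, a count of 0 allows a share of up to 7.50%. At P6 1 cell, at 15.6 RPKM, made the first capture's mean of 0.283 RPKM, and the second was at 0. It passed the filter of 1 RPKM only through the E10.5 capture, so its difference from E10.5 to E11.5, -2.0 on the log2 scale, is set by that capture and the pseudocount. The fit gave it an adjusted p of 0.0123 (limma) where 0.969% of 19710 genes passed, and 0.0406 in the overall test where 1.37% did, and neither is read as support for a change. At a pseudocount of 0.1 RPKM the first of these was 0.0512, and in the first sequencing series alone it was 0.273. The second was 0.0604 without the first E16.5 capture and 0.0535 without the series term. E10.5 cells also held mesonephros markers at a summed level of 100.6 RPKM, against 6.57 to 38.6 RPKM in the other captures. At E10.5 6 of the 8 markers were at or above 1 RPKM and Ret and Cdh16 were at 0, and their part in the Grem1 level was not tested. By the marker classes defined below, 3 of the 7 Grem1-positive E10.5 cells were stroma-marker cells, 4 were in no class and 0 were in the mesonephros-marker class. A cell in no class can still hold mesonephros markers.

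Among the targets, Id1 was at 162.97 RPKM at E10.5, 54.2 and 113.8 RPKM at E11.5, and 129.8, 280.3 and 204 RPKM at E12.5. For E13.5 the values were 99.1 and 177 RPKM, for E16.5 they were 129.99 and 20.8 RPKM, and for P6 they were 24.7 and 80.99 RPKM. E12.5 lay above E11.5 and P6 and overlapped with E13.5 and E16.5. From E11.5 to E12.5 its log2 difference of 1.27 was the largest of the 10 genes (adjusted p = 0.688, limma), and 0.72 without the second E12.5 capture, which held the highest Id1 level.

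Id2 was at 733 RPKM at E10.5, 801 and 627 RPKM at E11.5, and 287, 629.8 and 465 RPKM at E12.5. The later captures held 346 and 603 RPKM (E13.5), 285 and 481 RPKM (E16.5), and 182 and 283 RPKM (P6). The 3 captures of E10.5 and E11.5 overlapped with E12.5 only through its shallow second capture, and both P6 captures lay below every earlier capture. Id3 was at 506 RPKM at E10.5, 325 and 387 RPKM at E11.5, and 412, 579 and 799 RPKM at E12.5. The later captures held 228 and 514 RPKM (E13.5), 283.5 and 219 RPKM (E16.5), and 215 and 332 RPKM (P6). The E12.5 captures lay above those of E11.5, E16.5 and P6 but overlapped with E13.5. Neither gene reached an unadjusted p of 0.05 in any stage comparison (limma).

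Over the 6 stage comparisons and the overall test, the counts of members called were 1 of 10 for E10.5 to E11.5, 0 of 10 in the other 5 comparisons and 1 of 10 in the overall test, the 1 being Grem1 with the limit given above. The shares of all genes called were 0% for E11.5 to E12.5, for E12.5 to E13.5 and for E11.5 to E13.5, 0.528% for E13.5 to E16.5 and 0.289% for E16.5 to P6. At an unadjusted p under 0.05, 1 member passed in each of the first 4 consecutive comparisons, where 5.02%, 8.06%, 8.26% and 7.27% of all genes did. None passed for E16.5 to P6 or for E11.5 to E13.5, where 8.95% and 5.29% of genes did, and 2 passed in the overall test, as did 11.7%. From E13.5 to E16.5 the fitted difference was below 0 for 10 of 10 members, with a median of -1.30 against -0.15 over all genes. Grem1 was among them at -0.004. The share of all genes below 0 was not counted, so the count of 10 is not read as a result about these genes. With a filter of 10 RPKM the median was -1.43 over 8 members, against -0.21 over all genes. These stages were sequenced in different series, so the fitted differences rest on the series term, which the third E12.5 capture sets. Without the series term the difference was below 0 for 8 of 10 members, with a median of -0.51. Nothing in the labels tells whether 2 captures of a stage were made from different litters, and the tests rest on the differences among captures, some of which may be technical.

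The share of cells at or above 1 RPKM showed how widely each gene was spread. Id3 was found in 580 of 662 cells (87.6%), Id2 in 520 (78.5%) and Id1 in 429 (64.8%). Bmpr1a was found in 325 cells (49.1%) and Bmpr2 in 294 (44.4%), while Bmp4 was found in 20.2%, Bmp2 in 19.9% and Bmp7 in 14.95% of cells. So the targets lay in most cells, the main receptors in nearly as many cells as not, and each ligand in a minority. Grem1 was found in 8 cells (1.21%).

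**Figure D2:**
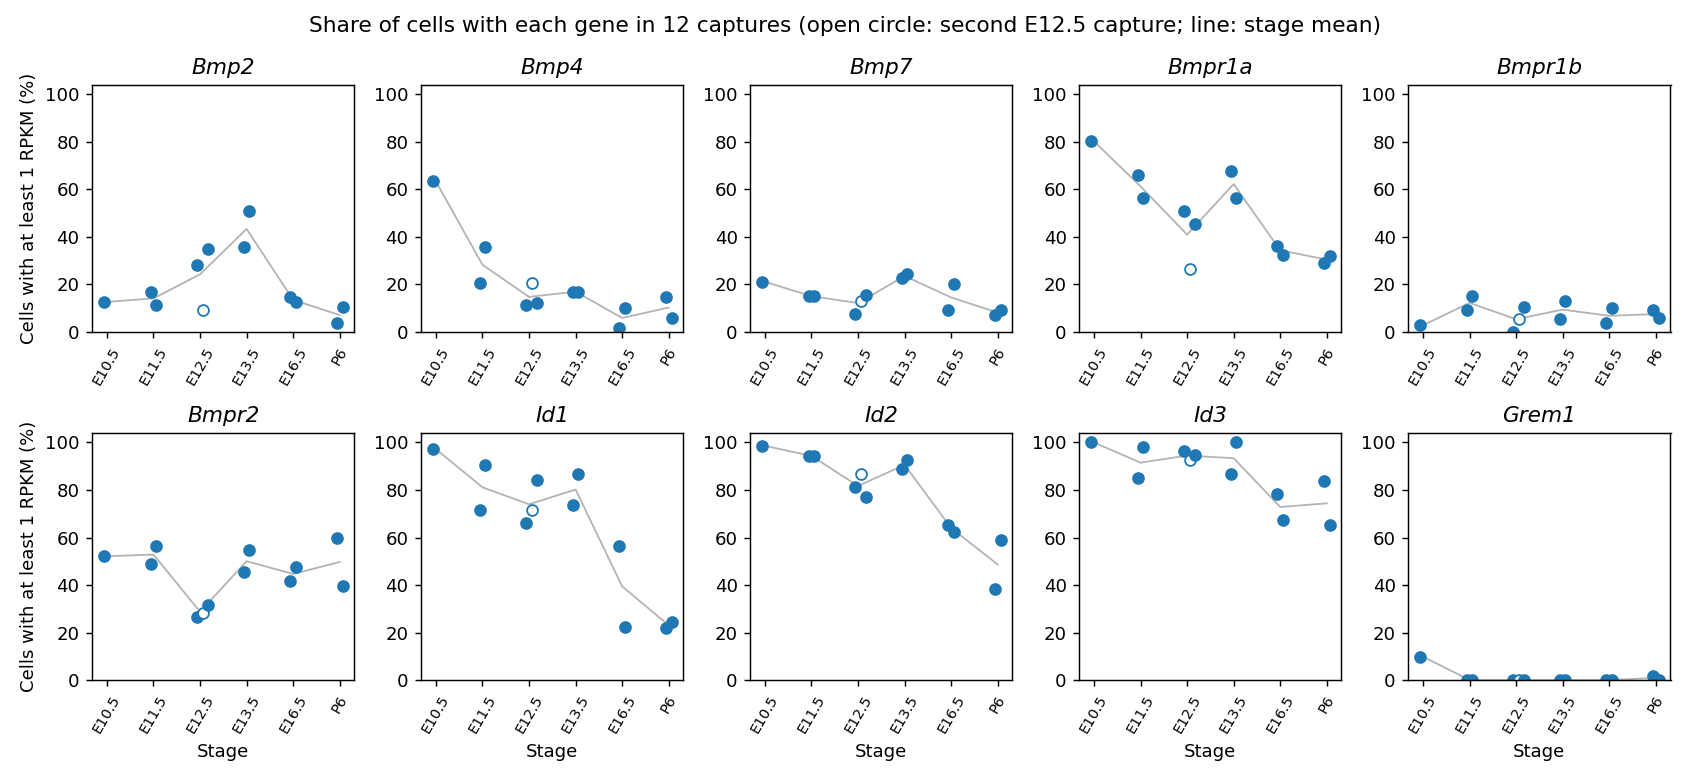
Percentage of cells at or above 1 RPKM in each capture for the 10 genes at 6 stages, all on the same axis from 0. Each point is a capture, the line joins stage means, and the open circle is the second E12.5 capture; Bmp2 was in 43.4% of cells at E13.5 and Bmp4 in 63.4% at E10.5, and Id1 was in 97.2% at E10.5 and 23.03% at P6.

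Bmp4 was the most widespread ligand at E10.5, in 45 of 71 cells (63.4%), and was in 5.91% ± 5.79 of cells at E16.5 (SD, n = 2 captures). Bmp2 was in 12.7% of cells at E10.5, 43.4% ± 10.7 at E13.5 and 7.12% ± 4.93 at P6. At least 1 of the 3 ligands was found in 69.01% of cells at E10.5, 64.2% in each E13.5 capture and 23.03% ± 1.71 at P6. The ligand found most often thus differed by stage, being Bmp4 at E10.5 and Bmp2 at E13.5.

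A type I receptor (Bmpr1a or Bmpr1b) together with the type II receptor Bmpr2 was found in 47.9% of cells at E10.5. The share was 35.8% ± 2.67 in both E11.5 and E13.5 (SD, n = 2 captures each), against 11.6% ± 5.26 in E12.5 (n = 3), 13.9% ± 1.61 in E16.5 and 16.8% ± 4.50 in P6 (n = 2). The captures of E12.5, E16.5 and P6 lay below those of E11.5 and E13.5, with no overlap. All 3 Id genes were found in 97.2% of cells at E10.5, 62.5% ± 5.24 at E12.5 (n = 3) and 11.2% ± 5.57 at P6. Cells with none of the 3 were 0% at E10.5, where 0 of 71 cells allows 4.23%, and 8.79% ± 4.71 at P6. The captures of E11.5 and E13.5 also lay above those of E12.5, E16.5 and P6 in the median number of genes detected per cell. That number was 6505 to 7249 in the former and 3640 to 5747 in the latter. Its part in these shares was not tested.

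To ask which cells carried the genes, cells were classed by counts of markers, none of which was a BMP gene. A cell was called supporting-marker where at least 4 of 8 markers of pregranulosa cells (the fetal supporting cells that become follicle cells) or of growing granulosa cells were at or above 1 RPKM, with a lead of at least 2 over the other lists. Stroma-marker cells were set likewise from 8 markers of interstitial cells. Supporting-marker cells were 22.96% of all cells, 281 cells were stroma-marker cells, 9 had surface epithelium markers, 8 had mesonephros markers and 212 were in no class. These are ranges of a marker count and not cell types, and 83 of the unclassed cells were 1 marker short of a class. Summed pregranulosa markers were 287 to 414 RPKM in supporting-marker cells of the fetal captures and 14.3 to 54.8 RPKM in stroma-marker cells of the same captures. In both P6 captures the sum was lower in supporting-marker cells than in any fetal capture, and still above that of stroma-marker cells. These markers helped to set the classes, so a gap is built in by the class rule and does not check the classes.

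Of the compared classes, Bmp2 was higher in supporting-marker cells from E12.5 to E16.5. In the captures of E12.5 with both classes it was at 50.1 and 35.02 RPKM in supporting-marker cells against 0.971 and 0.248 RPKM in stroma-marker cells. At E13.5 it was at 58.1 and 38.1 RPKM against 8.05 and 2.88 RPKM, and at E16.5 at 3.97 and 5.91 RPKM against 0 in both. Supporting-marker cells were higher in 6 of 6 fetal captures. Bmp2 was found in 20 of 27 supporting-marker cells of E12.5, in 26 of 40 of E13.5 and in 9 of 37 of E16.5. Many Bmp2-positive cells were in no class, 17 of 40 at E12.5 and 14 of 46 at E13.5, and none of the 9 at E10.5 and 15 at E11.5 was a supporting-marker cell. The stroma minus supporting difference was -3.45 ± 0.50 on the log2 scale (SE; adjusted p = 0.00937, limma with the capture as a block). Bmp2 was the 1 of 9 tested members called, where 2.77% of 19457 genes were called.

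At P6 the order of Bmp2 was turned. It was at 0 and 0.129 RPKM in supporting-marker cells and at 2.13 and 9.49 RPKM in stroma-marker cells, where 8 of 63 cells carried it. The difference was 2.43 ± 0.86 on the log2 scale (SE; unadjusted p = 0.0202, adjusted p = 0.299, limma). The change of the class difference between P6 and the fetal stages was 5.88 ± 0.99 (SE), with an unadjusted p of 0.000233 and an adjusted p of 0.0622 (limma), so it did not pass, and 0.334% of genes did. It did pass without the capture as a block (adjusted p = 0.0121), at a pseudocount of 0.1 RPKM (adjusted p = 0.039) and without the first P6 capture (6.66, adjusted p = 0.0481, limma).

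Id2 was higher in stroma-marker cells. At E12.5 it was at 431 and 493 RPKM in stroma-marker cells against 224 and 241 RPKM in supporting-marker cells, and at E13.5 at 614 and 695 RPKM against 171 and 462 RPKM. At E16.5 it was at 644 and 804 RPKM against 138.4 and 252 RPKM, and at P6 at 285 and 417 RPKM against 8.25 and 98.1 RPKM. Stroma-marker cells were higher in 6 of 6 fetal captures and in 2 of 2 at P6. At P6 the difference passed, at 3.51 ± 0.61 on the log2 scale (SE; adjusted p = 0.0329, limma), when 1.13% of genes were called and Id2 was the 1 of 9 members called. This call was lost in 6 of the 9 fits that left out a capture, with a difference of 2.08 (adjusted p = 0.173) without the first P6 capture. The other 5 were the fits without the first E12.5 capture, the third, either E13.5 capture or the second E16.5 capture, with adjusted p-values of 0.0526 to 0.0639 (limma). In the fetal captures the difference was 1.38 ± 0.35 (SE; unadjusted p = 0.00344, adjusted p = 0.0816, limma), and it passed without the second E12.5 capture, which held no supporting-marker cells (adjusted p = 0.0404), and without the first or second P6 capture (0.0434 and 0.0465). P6 minus fetal, the class difference was 2.13 ± 0.70 larger (SE; unadjusted p = 0.0139, adjusted p = 0.407, limma), and it was 0.70 larger without the first P6 capture (adjusted p = 0.913) and 3.57 larger without the second (adjusted p = 0.0316).

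Supporting-marker cells at P6 also held steroidogenic markers at summed levels of 2205 and 913 RPKM, against 23.4 and 0.486 RPKM in stroma-marker cells. In the supporting-marker cells 3 and 2 of the 6 markers were at or above 1 RPKM, with Cyp11a1, Cyp17a1 and Insl3 at 0, and the part of these cells in the Id2 and Bmp2 values was not tested. The median number of detected genes was 5311 and 4270 in supporting-marker cells and 4339 and 3415 in stroma-marker cells at P6.

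Id1 went the other way from Id2 in the fetal captures. It was at 170.2 and 242 RPKM in supporting-marker cells and 71.9 and 141.7 RPKM in stroma-marker cells at E12.5, and at 114.6 and 248 RPKM against 53.9 and 97.2 RPKM at E13.5. At E16.5 it was at 166 and 23.4 RPKM against 95.2 and 25.2 RPKM. Supporting-marker cells were higher in 5 of 6 captures, the second E16.5 capture being the exception. The stroma minus supporting difference was -0.85 ± 0.22 on the log2 scale (SE; unadjusted p = 0.00385, adjusted p = 0.0859, limma), and without the second E16.5 capture it was -1.04 (adjusted p = 0.0349). At P6 Id1 was at 18.9 and 47.4 RPKM in supporting-marker cells and 28.6 and 48.6 RPKM in stroma-marker cells, and the change of the difference was 1.15 ± 0.44 (SE; unadjusted p = 0.0281, adjusted p = 0.502). Id3 was at 366 ± 185 RPKM in supporting-marker and 449.9 ± 194 RPKM in stroma-marker cells of the fetal captures (SD, n = 6 captures), which overlapped widely.

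**Figure D3:**
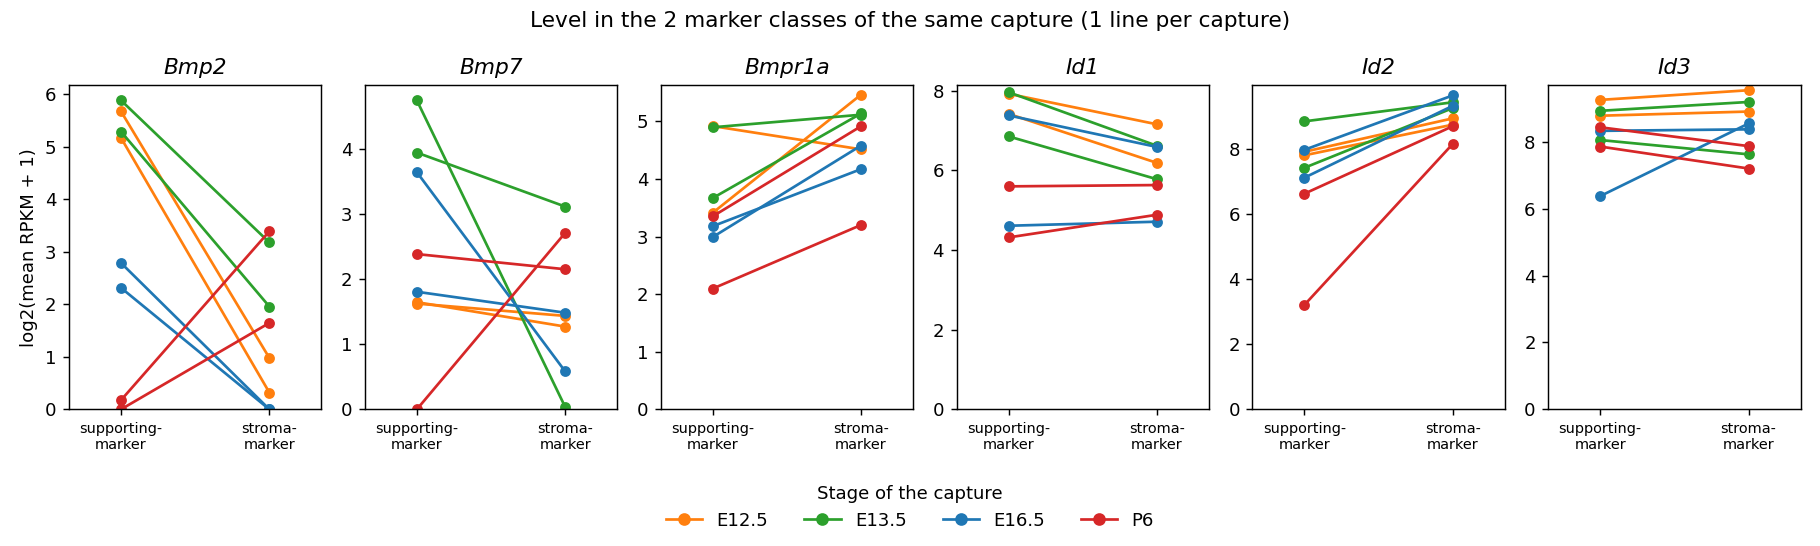
Level of 6 genes, as log2(mean RPKM + 1), in supporting-marker and stroma-marker cells of the same capture; each line is 1 of 8 captures, coloured by stage. For Bmp2 all 6 fetal lines run down towards stroma-marker cells and both P6 lines run up, and for Id2 all 8 lines run up.

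Of the receptors, Bmpr1a was at 28.8 ± 9.80 RPKM in stroma-marker cells and 15.7 ± 10.4 RPKM in supporting-marker cells of the fetal captures (SD, n = 6), higher in stroma-marker cells in 5 of 6. The log2 difference was 0.99 ± 0.37 (SE; unadjusted p = 0.0258, adjusted p = 0.231, limma). The share of positive cells was 43.5% ± 19.5 in stroma-marker and 45.1% ± 22.2 in supporting-marker cells. Bmpr2 was higher in stroma-marker cells in 6 of 6 fetal captures, at 8.61 ± 4.23 RPKM against 4.81 ± 2.02 RPKM, and did not reach an unadjusted p of 0.05. Its share of positive cells was 43.1% ± 13.9 in stroma-marker and 38.3% ± 17.2 in supporting-marker cells, with no common direction over captures. Bmpr1b at P6 was found in 7 of 46 supporting-marker cells and in 0 of 63 stroma-marker cells.

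Bmp7 was higher in supporting-marker cells in 6 of 6 fetal captures, at 9.77 ± 9.55 RPKM against 2.19 ± 2.78 RPKM, and its unadjusted p was 0.059 (limma). Bmp4 was at 6.02 ± 7.16 RPKM in supporting-marker and 12.4 ± 16.1 RPKM in stroma-marker cells, with no common direction over captures. Of the 24 Bmp4-positive cells at E12.5, 14 were stroma-marker cells and 1 was a supporting-marker cell, while of the 40 Bmp2-positive cells 3 and 20 were. Without the second E12.5 capture 6 of 13 Bmp4-positive cells were stroma-marker cells. Grem1 was below the filter of 1 RPKM in every class mean from E12.5 on and was not tested here, while the stroma-marker cells of E10.5, outside this comparison, held 2.21 RPKM. At an unadjusted p under 0.05 in the fetal comparison 4 of 9 members passed, against 15.6% of all genes, at P6 2 of 9 passed, against 13.2%, and for the change between them 3 of 9 passed, against 9.54%. Surface epithelium-marker cells numbered at most 3 in any capture, so they were not compared.

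Coexpression was measured as Pearson's r of log2(RPKM + 1) over the cells of each capture, taking the pairs where both genes were in at least 10% of cells. Cells of a capture share chip, depth and stage, so these values are descriptions. The Id genes had the highest values. Id1 and Id3 had a median r of 0.35 over 12 captures (0.05 to 0.60, above 0 in 12), Id2 and Id3 one of 0.33 (above 0 in 11), and Id1 and Id2 one of 0.21 (above 0 in 11). Given the number of genes detected per cell, the partial values were 0.40, 0.34 and 0.18. In the first and second P6 captures r was 0.05 and 0.33 for Id1 and Id3. It was -0.14 and 0.10 there for Id2 and Id3, and 0.10 and -0.01 for Id1 and Id2. Within supporting-marker cells alone the median r of Id1 and Id3 was 0.35 over 8 captures, and within stroma-marker cells it was 0.28 over 12. For Id2 and Id3 the median was 0.35 within supporting-marker cells (7 captures) and 0.17 within stroma-marker cells (12 captures, lowest -0.18).

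Among ligands, Bmp2 and Bmp7 had a median r of 0.21 over 7 captures and were above 0 in all 7. They were found together in 36 cells, against 22.5 given by the product of their shares in each capture, a ratio of 1.60. Those 36 cells are 27.3% of Bmp2-positive and 36.4% of Bmp7-positive cells. Bmp2 and Bmp7 were each higher in supporting-marker cells in 6 of 6 fetal captures, Bmp7 by little in some of them, as given above. This pair was not measured within classes, so the part of the class mix was not tested. Bmp2 and Bmp4 had a median r of -0.12 over 8 captures and were found together in 18 cells against 24.1, a ratio of 0.75.

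Ligands and receptors showed weak relations. Their median r lay between -0.14 (Bmp2 and Bmpr1b, 4 captures) and 0.08 (Bmp4 and Bmpr1a, 10 captures), and Bmpr1a with Bmpr2 had a median of -0.03 over 12 captures. A type I and type II receptor pair was found in 27.3% of Bmp2-positive cells (36 cells), 35.8% of Bmp4-positive cells (48 cells) and 29.3% of Bmp7-positive cells (29 of 99), at ratios of 1.03 to 1.08 to the product of shares. For single receptors the ratios ran from 0.64 (Bmp7 with Bmpr1b, 5 cells against 7.83) to 1.14 (Bmp4 with Bmpr1b, 11 cells against 9.64). Between ligands and targets, Bmp2 with Id2 had a median r of -0.17 over 10 captures, and Bmp7 with Id2 one of -0.15 over 8. Bmp4 with Id2 had a median of 0.09. The medians of the 3 ligands with Id1 and Id3 lay between -0.08 (Bmp7 and Id1) and 0.01 (Bmp4 and Id1). Bmp2 and Id2 differed in opposite directions between the classes of the fetal captures, and the part of this in their r was not tested. Receptors and targets reached 0.15 at most, for Bmpr1b with Id3 in 4 captures, and Bmpr2 with Id3 had 0.14 over 12.

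**Figure D4:**
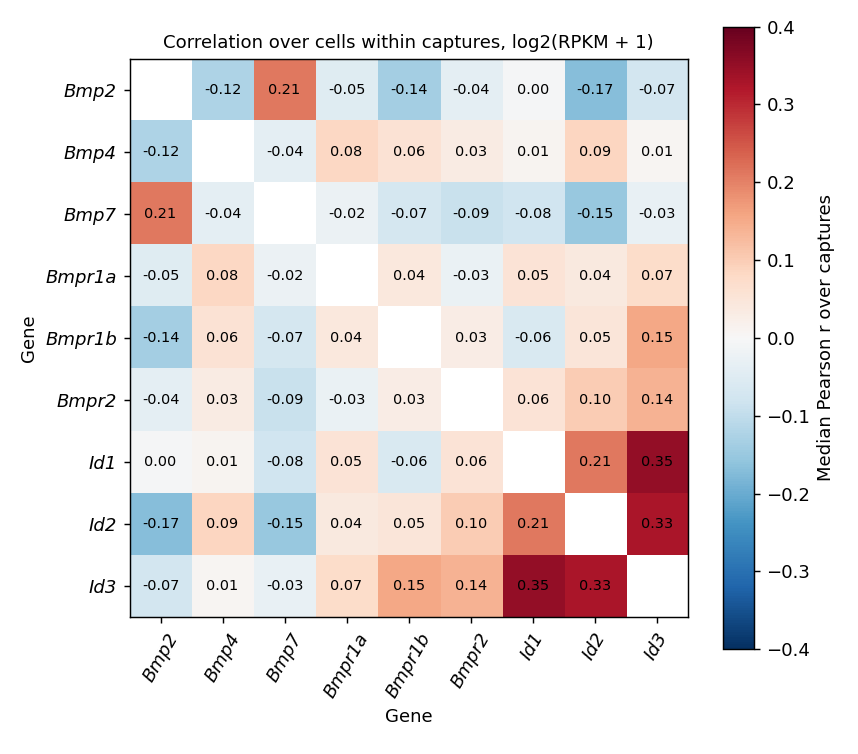
Median over captures of Pearson's r between pairs of 9 genes over the cells of a capture, on log2(RPKM + 1); red is above 0 and blue below 0, and Grem1 is left out as it was in under 10% of cells in every capture. The Id1, Id2 and Id3 block (0.21 to 0.35) and the pair Bmp2 and Bmp7 (0.21) stand out, and the pairs of ligands with receptors lie between -0.14 and 0.08.

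Among 10989 genes found in at least 10% of cells, the genes whose cell-to-cell pattern was most like that of a member were ranked by the mean r over 12 captures. For Id1 they were Id3 (0.35), Id2 (0.25) and Jun (0.20), an immediate early gene. For Id3 they were Id1, Id2 (0.31) and Set (0.28). Those of Id2 were Col1a2 (0.32) and Col1a1 (0.31), both collagen I genes, followed by Id3, and Col1a1 is among the stroma markers used for the classes. Bmp2 was nearest to Klhl23 (0.28), Kctd14 (0.27) and X4933415A04Rik (0.26), and Bmp4 to Tagln (0.21), a gene of actin binding in smooth muscle, AC113302.1 (0.20) and Cux2 (0.20). The nearest gene reached 0.20 for Bmp7 (Slc12a7), 0.19 for Bmpr1a (Klhl24) and 0.16 for Bmpr2 (Igf1r, a growth factor receptor gene).

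Other genes of the pathway were taken from 6 lists of 45 genes in all (ligands, receptors and co-receptors, SMAD transducers, intracellular or membrane inhibitors, secreted antagonists, targets), of which 38 were tested in the stage comparisons. Across the 5 consecutive stage comparisons, 1 of them was called, from E16.5 to P6, where 0.289% of all genes were. Bmp3, a BMP family ligand that does not act as a classical BMP agonist, rose from E16.5 to P6 by 4.89 ± 0.50 on the log2 scale (SE; adjusted p = 0.0203, limma), to 45.2 RPKM in the first P6 capture, and passed the overall test (adjusted p = 0.0417). The median change over these 38 genes from E13.5 to E16.5 was -1.004, against -0.15 over all genes, and it rests on the series term as above.

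In the class comparison, 1 of 38 other pathway genes was called in fetal captures, where 2.77% of all genes were, 2 at P6, where 1.13% were, and 1 for the change between them, where 0.334% were. The called genes were Eng and Chrdl1, and both passed the filter only through the class where they were high, so the counts and their tests are read as no support. Eng, the co-receptor endoglin, was at 2.85 to 12.96 RPKM in stroma-marker cells of the 6 fetal captures with both classes (0 in the shallow second E12.5 capture) and at 10.7 and 26.1 RPKM at P6, and at most 0.0135 RPKM in supporting-marker cells of these captures. Its stroma minus supporting difference was 2.62 ± 0.42 on the log2 scale in fetal captures (SE; adjusted p = 0.01455, limma) and 4.14 ± 0.73 at P6 (adjusted p = 0.0364). Chrdl1, an antagonist related to chordin, was found in 8 of 662 cells. It was at 4.96 and 2.87 RPKM in supporting-marker cells of P6, at 0 and 0.00926 RPKM in stroma-marker cells of P6, and at 0 in both classes of the fetal captures. Endothelial cells also express Eng. Over all cells of a class, endothelial markers summed to 0.443 to 29.8 RPKM in stroma-marker cells and to 0.631 to 10.52 RPKM in supporting-marker cells of the 8 captures. At most 2 of the 6 markers were at or above 1 RPKM in either class and Cldn5 was at 0 in both throughout, and their part in the Eng levels was not tested.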

How the data were processed

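Single cells were captured on C1 chips and turned into cDNA with SMARTer chemistry, per the labels' protocols. The authors' deposited values were taken as RPKM, since the table names no unit, their totals differ between cells and low values fall on steps that scale with gene length. They were therefore not tested as counts. Per the submitters' processing notes genome build GRCm38.p3 (mm10) was used. Which aligner and counter were used, and whether strand was used or cells were filtered, is not stated in the labels or headers. Of 43347 names, 27 that a spreadsheet had turned into dates were left out, and 36002 of the rest were in GENCODE vM21. A repeat library of 1 cell was averaged with the first. No doublet caller was run.

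The replicate was the capture, taken from the titles. For each capture, log2(mean RPKM + 1) of 19710 genes with a mean of at least 1 RPKM in a capture was fitted with limma 3.58.1 in R 4.3.3 on stage and sequencing series (5 residual degrees of freedom), with an intensity trend. The second series held E16.5, P6 and the third E12.5 capture, and the first series all others. Class means of at least 5 cells were fitted with capture as a block and class by period (6 residual degrees of freedom, 19457 genes), so classes were paired within captures. P-values were two-sided and adjusted with the Benjamini-Hochberg method over all genes, with a threshold of 0.05. Differences on this log2 scale understate changes at low levels. Both fits were tested on simulated data with known log2 changes of 1, 2 and 4. For E16.5 to P6, 0%, 4.48% and 24.2% of these changes were recovered. The fetal class comparison recovered 2.99%, 35.8% and 63.6%, and that of P6 recovered 0%, 4.48% and 25.8%. A cell was positive at 1 RPKM or more, and exact intervals (95%) and the limit from a count of 0 (3 counts) cover counting error only.

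A difference with its adjusted p was printed for a member with an unadjusted p under 0.05 and for the member with the largest difference in each comparison; other pathway genes were limited to the 3 with the lowest p per comparison, and similar genes to the 3 with the highest mean r among genes in at least 10% of cells. Members, lists and markers were chosen with earlier results of these data known. Alternatives changed the pseudocount, filter, scaling, series term, class rules and captures used. The planned comparison of surface epithelium-marker cells was left out for lack of cells.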

Additional observations from a re-analysis of the deposited data

Results flagged for a closer look

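Bmp2 is given here because its class difference ran in opposite directions in every capture of the fetal stages and of P6. Supporting-marker cells were higher in 6 of 6 fetal captures (31.9 ± 22.4 against 2.03 ± 3.15 RPKM, SD), and stroma-marker cells were higher in 2 of 2 P6 captures (5.81 ± 5.20 against 0.0645 ± 0.0912 RPKM). The test of the change itself gave 5.88 on the log2 scale with an adjusted p of 0.0622 (limma), which ranged from 0.0121 to 0.176 over 8 alternatives and the 9 fits that each left out a capture. At P6 the mean rested on few cells: 2 stroma-marker cells were positive in the first capture and 6 in the second, where 1 cell made up 52.2% of the sum over all cells.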

How the results depend on the processing

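The Grem1 call from E10.5 to E11.5 gave way to 0 members called at a pseudocount of 0.1 RPKM, in the first sequencing series alone and with a filter of 10 RPKM, which removes Grem1. In the overall stage test the count was 0 under the same 3 settings and in the second series alone. There Bmp4 was called in place of Grem1 where the series term was left out, with or without the second E12.5 capture. Leaving out 1 capture at a time gave 0 to 1 members overall. The fetal class comparison gave 2 members called (Bmp2 and Id2) with a filter of 10 RPKM, and 1 to 2 without 1 capture. The P6 class comparison gave 0 with no filter and 0 to 1 without 1 capture. The change between P6 and the fetal stages gave 1 member (Bmp2) at a pseudocount of 0.1 RPKM and with no replicate block, and 0 to 1 without 1 capture. With no replicate block the fetal and P6 class counts were 1 and 1, as in the fit with the block. No paired analysis was possible for stages because captures of different stages share no number in the labels. Bmpr1b from E16.5 to P6 turned to 0.026 with means of log2 values, and ranged from -2.109 to 0.683 without 1 capture. Mean shares of positive cells moved, above 0 and at 10 RPKM, to 23.6% and 8.49% for Bmp7, 14.3% and 2.99% for Bmpr1b, and 66.8% and 23.4% for Bmpr2, and above 0 to 68.7% for Bmpr1a. The cause of these changes was not tested beyond the filter. Over all genes, calls (in the fit reported, and the highest) were 191 and 1003 for E10.5 to E11.5, 0 and 1594 for E11.5 to E12.5, 0 and 1609 for E12.5 to E13.5, 57 and 369 for E16.5 to P6, 0 and 219 for E11.5 to E13.5, and 271 and 1509 in the test over all stages. For E13.5 to E16.5 the highest was 786, and the lowest was 0 in each of these. They ranged from 279 to 790 for the fetal class comparison, and reached 634 at P6 and 568 for the change. The fit without the third E12.5 capture was not run for stages, since that capture sets the series term. With 1 to 3 captures a stage, and a shallow second E12.5 capture, absent calls do not show equal levels.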
